A study of Homo sapiens with 6 samples.

Results

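MAT2A, MAT2B, METTL16 and AHCY belong to the methionine cycle or act on its control, and their transcripts were followed here together with the methionine-sensing hairpins in the 3′ UTR of MAT2A. The members were found by gene name through the RefSeq accessions of the files. All 4 of the 4 genes were listed, with 1 transcript each, in all 6 libraries, out of 15739 transcripts in the whole series, of which 11128 were listed in all 6 libraries. The study mapped the nucleotides at which reverse transcriptase (RT) stops on poly(A)-selected mRNA of U2OS cells, a human osteosarcoma line, and asked how RNA folding differs between cells and refolded RNA and between unstressed and starved cells. By the labels, 2 libraries used RNA never exposed to dimethyl sulfate (DMS), with 150 mM Na+ or 150 mM K+ during RT, and in 2 libraries mRNA was refolded in vitro in 150 mM K+ or 150 mM Li+ and then modified. The other 2 came from living cells exposed to 8% DMS for 5 min. Unstressed cells were in serum-containing growth medium, and starved cells had spent 2 h in HBSS, a balanced medium of salts and glucose that lacks methionine, all other amino acids and serum. No strain, genotype or transgene is named for any group, and U2OS is 1 line.

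MAT2A is the catalytic subunit of methionine adenosyltransferase, which makes S-adenosylmethionine (SAM), the methyl donor of most methylation reactions, from methionine and ATP. MAT2B is its regulatory subunit, and AHCY hydrolyses S-adenosylhomocysteine, the product left after SAM has given its methyl group. METTL16 is an RNA methyltransferase that binds hairpins in the MAT2A 3′ UTR and methylates an adenosine in their loop. When SAM is scarce, METTL16 is known to dwell on the first hairpin and to promote splicing of a retained intron, while methylation of the other hairpins is linked to mRNA decay. The isoform with the retained intron was not analysed here, because the files list the spliced RefSeq transcript. DMS methylates unpaired A and C on their base-pairing face and blocks RT there, so RT stops at A and C (A and C stops below) mark nucleotides that were open to the reagent.

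The hairpins were located by searching the sense strand of the transcripts for the nonamer TACAGANAA, where N is any base. MAT2A held 6 copies, all in the 3′ UTR in exon 9 of 9, and MAT2B, METTL16 and AHCY held 0. Among 89217 protein-coding transcripts of GENCODE release 44 on GRCh37, 6896 (7.73%) held at least 1 copy, and transcripts with 6 or more came from 3 genes (MAT2A, MUCL3 and TTN). The 6 windows below are shown because every hairpin result rests on them. Each is read 5′ to 3′ on the plus strand of chromosome 2 (GRCh37, hg19), with the nonamer in capitals and 10 nt on each side.
hairpin 1, chr2:85770925-85770953: tggcgtaggcTACAGAGAAgccttcaagc
hairpin 2, chr2:85771712-85771740: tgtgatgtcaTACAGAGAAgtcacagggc
hairpin 3, chr2:85771897-85771925: ctggtgtagcTACAGAGAAaccagcttcc
hairpin 4, chr2:85772012-85772040: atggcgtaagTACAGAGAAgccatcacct
hairpin 5, chr2:85772127-85772155: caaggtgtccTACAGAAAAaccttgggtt
hairpin 6, chr2:85772235-85772263: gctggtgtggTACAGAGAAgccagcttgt

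The nonamer was the same in 5 of the 6 hairpins, and hairpin 5 differed at the variable position. The adenosine that METTL16 methylates is position 4 of the nonamer, counted from 1 at its 5′ end. The first nonamer began 40 nt after the stop codon, and the other 5 began 827, 1012, 1127, 1242 and 1350 nt after it, so that hairpin 1 stands alone near the coding sequence. In a minimum free energy fold of each nonamer with 20 nt on each side, all 9 nonamer bases were unpaired in hairpins 1, 4 and 5, and 7, 6 and 4 of them in hairpins 2, 3 and 6.

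The MAT2A transcript (NM_005911) lies at chr2:85766291-85772404 on the plus strand and consists of 9 exons, with 120 nt of 5′ UTR, 1188 nt of coding sequence and 1509 nt of 3′ UTR. MAT2B lies at chr5:162932625-162946360 (plus strand, 7 exons), METTL16 at chr17:2319343-2415182 (minus strand, 10 exons) and AHCY at chr20:32868074-32891161 (minus strand, 10 exons). Every base listed for these 4 transcripts was identical to the GENCODE transcript used.

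Each condition was measured once. Differences therefore have no replicate check, no p-value is given, and the 95% intervals cover counting error only. The libraries held 12999691 to 35371061 listed RT stops, the fewest in unstressed cells and 24014417 in starved cells. Of all listed stops, 51.1% and 52.4% were at A or C without DMS, 83.9% and 83.2% in the refolded K+ and Li+ libraries, 88.4% in unstressed and 78.2% in starved cells. The cation labels of the pair without DMS are contradicted by the names of the deposited files, and the study's methods name Li+, not Na+, beside K+ for RT, so these libraries are called by their labels and serve side by side as the background. Transcript shares of both libraries from living cells were spread widely. Over 7355 transcripts the quartiles of the starved over unstressed ratio were 0.306 and 1.89, whereas between the 2 libraries without DMS they were 0.923 and 1.06. Against refolded RNA in K+, they were 0.60 and 1.38 for unstressed and 0.345 and 1.39 for starved cells. Of 7 osteoblast lineage markers 5 were listed, and their summed level was 1531 to 1902 per 1000000 listed stops in 5 libraries and 448 in starved cells, with COL1A2 and BGLAP at 0 in all libraries. SPARC (starved over unstressed ratio 0.251) and COL1A1 (0.183) carried most of this sum, whereas RUNX2 had a ratio of 2.89 (78 and 416 stops). Markers of epithelial, blood, endothelial and liver cells summed to 0.692 to 2.31 on this scale, and KRT19, CD3E and ALB were at 0 throughout.

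The transcript share of a gene is its number of RT stops per 1000000 listed stops of the library. It reflects the mRNA level relative to the other transcripts of the library, together with modification. Fewer cells with the mRNA and less of it per cell cannot be told apart in it. MAT2A had 429 stops per 1000000 in the library labelled Na+, 445 in that labelled K+, 460 in RNA refolded in K+, 430 in RNA refolded in Li+, 385 in unstressed cells and 482 in starved cells. Starved cells were thus the highest and unstressed cells the lowest of the 6 libraries. The share of MAT2A was 1.25-fold that of unstressed cells after starvation (95% interval 1.21 to 1.29), from 5005 and 11570 stops. This ratio lay at the 60.8 percentile of all transcripts, whose median was 0.882. Of all transcripts 32.9% were at least 1.5-fold higher in starved cells and 42.5% at least 1.5-fold lower, so a ratio of this size is common between these libraries. It was 1.91 at U and G, the bases where DMS blocks RT least, and 1.09 with the total of the transcript estimated from the deposited means, which include counts too low to be listed.

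**Figure D1:**
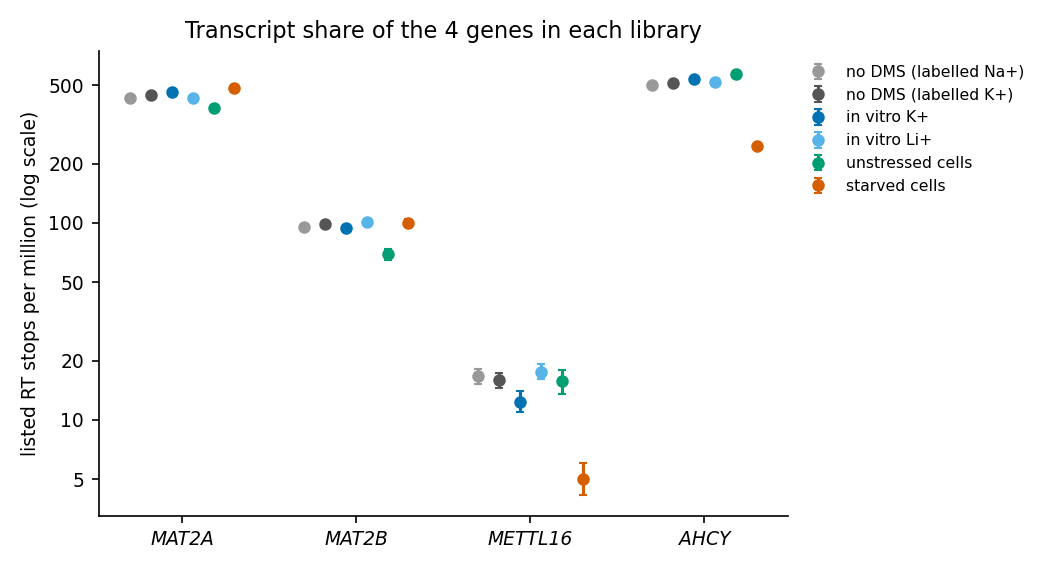
Listed RT stops per 1000000 (log axis) of MAT2A, MAT2B, METTL16 and AHCY in each of the 6 libraries, with 95% exact binomial intervals for counting error. METTL16 and AHCY lie lowest in starved cells (5.04 and 245), whereas MAT2A is highest there (482).

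MAT2B, the regulatory subunit, had 95.5 and 99.1 stops per 1000000 without DMS (labelled Na+ and K+), 93.9 and 101 in vitro (K+ and Li+), 69.3 in unstressed and 100.4 in starved cells. The unstressed library was the low one, and the starved value fell within the range of the other libraries. The starved over unstressed ratio was 1.45 (interval 1.34 to 1.57, from 901 and 2412 stops), and 1.15 from the deposited means. METTL16, the reader and writer of the hairpins, was the least covered member, with 16.6 and 15.9 stops per 1000000 without DMS, 12.4 and 17.6 in vitro, 15.7 in unstressed and 5.04 in starved cells. Starved cells lay below the other 5 libraries, at 0.321 of the unstressed share (interval 0.254 to 0.404, from 204 and 121 stops). From the deposited means the ratio was 0.501. AHCY had 500.1 and 512 stops per 1000000 without DMS, 538 and 519 in vitro, 571 in unstressed and 245 in starved cells. Its starved share was 0.429 of the unstressed share (interval 0.415 to 0.444, from 7426 and 5891 stops), again with starved cells below all other libraries. METTL16 and AHCY were thus 2 of 4 members at least 1.5-fold lower in starved cells, beside 42.5% of all transcripts, and none of the 4 was at least 1.5-fold higher, beside 32.9%. The count of higher members depends on the scaling, since MAT2B was at 1.64 when scaled to the median ratio over transcripts, and MAT2B and MAT2A were at 1.87 and 1.91 from stops at U and G. The values at U and G also carry the listing limit, as the deposited means of MAT2B in unstressed cells were 0.305 at G and 0.145 at U.

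Per length, the order of the genes was the same in 5 of 6 libraries. AHCY had 114 to 266 stops per 1000000 per kb, MAT2A 137 to 171, MAT2B 33.6 to 49.0 and METTL16 0.878 to 3.06. AHCY was above MAT2A everywhere except in starved cells, where MAT2A had 171 and AHCY 114. The shares of the members in the library labelled Na+ were 0.964 to 1.05 of those in the library labelled K+. Between Li+ and K+ in vitro the ratio was 0.935 for MAT2A, 0.965 for AHCY, 1.08 for MAT2B and 1.42 for METTL16, beside a median of 1.11 over all transcripts.

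The libraries from cells were weighted towards the 3′ UTRs of these mRNAs. For MAT2A, 86.8% of the stops in unstressed and 86.9% in starved cells lay in the 3′ UTR, against 59.4 to 62.3% in the other 4 libraries. MAT2B had 82.9% and 79.3% there in cells and 56.1 to 62.1% elsewhere, and AHCY 69.3% and 70.6% in cells and 42.8 to 47.9% elsewhere. All listed METTL16 stops in cells were in its 3′ UTR, so its coding sequence was not covered there. Shares within a 3′ UTR were therefore used for the hairpins.

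The share of stops at A or C rises with the signal that depends on DMS, but it also changes with the stops at G and U. Of the listed MAT2A stops, 6.43% in unstressed and 16.1% in starved cells were at G, and 1.12% and 5.53% at U. In the MAT2A 3′ UTR the A and C share was 53.2% and 52.8% without DMS, 84.5% and 83.2% in vitro (K+, then Li+), 92.0% in unstressed and 77.7% in starved cells. The difference between starved and unstressed cells was -14.3 percentage points (interval -15.4 to -13.1), and -14.1 points over the whole transcript. It was -8.61 for MAT2B, -10.2 for METTL16 and -13.6 for AHCY, and the median over 7351 transcripts was -9.03. The share of listed stops at A and C was thus lower in starved cells for the members and for the libraries as a whole. When nucleotides that are not listed counted as 2, however, the MAT2A difference was 0.110 points (interval -1.27 to 1.50). A count of 2 is more than the deposited means of MAT2A in unstressed cells at U (0.421) and G (0.890), so this setting is an outer bound. From the deposited means, which are free of the listing limit, the difference for MAT2A was -9.65 points.

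A and C stops along the MAT2A 3′ UTR were spread differently in each library. Unstressed cells had 4.10 to 5.38% of them in each 100-nt bin of the first 800 nt and 5.50 to 11.0% in the bins after that. Refolded RNA in K+ had 4.56 to 8.56% in the first 8 bins and 4.28 to 9.13% after them. Starved cells had 2.94% in the first 100 nt, which hold hairpin 1, and 14.4% in the bin from 1401 to 1500 nt, near the poly(A) tail, where unstressed cells had 5.38% and 10.5%. In the bin from 1301 to 1400 nt, which holds hairpin 6, the shares were 9.60% in unstressed cells, 5.78% in starved cells and 4.28% in vitro in K+. Over the 730 A and C nucleotides of the 3′ UTR, Pearson's r between unstressed and starved cells was 0.683 (Spearman's rho 0.682). Starved cells had an r of 0.540 (rho 0.550) with the library without DMS labelled K+, and unstressed cells one of 0.356 (rho 0.395). These nucleotides share their transcript and base composition, and the values are a description only.

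**Figure D2:**
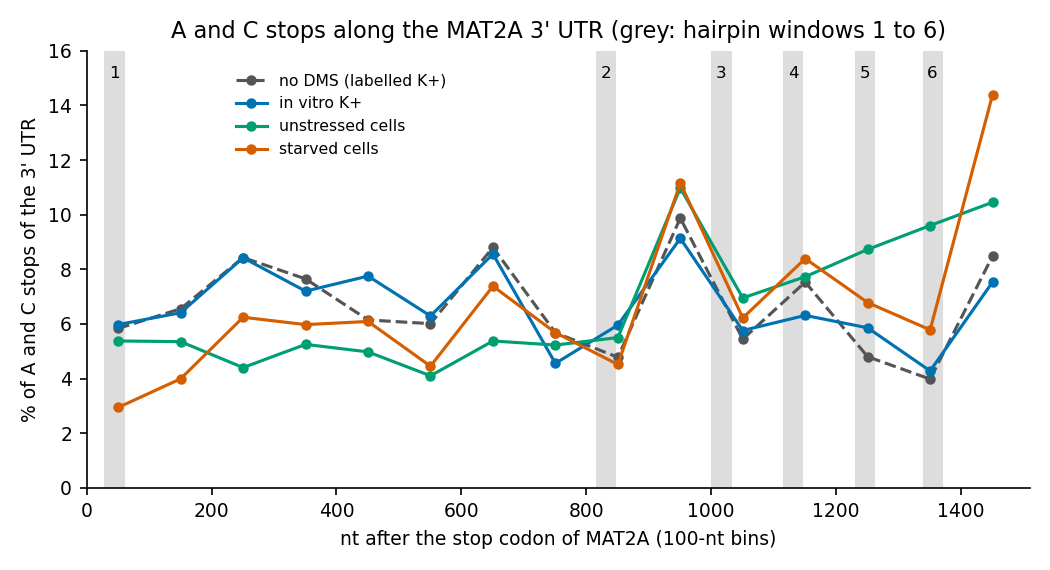
Percent of the A and C stops of the MAT2A 3′ UTR in each 100-nt bin (the last 9 nt left out) against the distance from the stop codon, in 4 libraries (no DMS labelled K+, refolded in K+, unstressed, starved), with the hairpin windows in grey. Starved cells are lowest in the first bin (2.94%) and highest in the last (14.4%), and unstressed cells are highest over hairpins 5 and 6.

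The 6 hairpin windows hold 88 of the 730 A and C nucleotides (12.1%). They took 14.8% and 15.2% of the A and C stops of the 3′ UTR without DMS (labelled Na+ and K+), 15.0% and 18.0% in vitro (K+, then Li+), 19.1% in unstressed cells (interval 17.9 to 20.3%) and 13.5% in starved cells (12.7 to 14.2%). Unstressed cells were the highest and starved cells the lowest of the 6 libraries. The 37 A and C nucleotides of the nonamers, 5.07% of those in the 3′ UTR, took 7.13% and 7.14% without DMS, 11.0% and 13.0% in vitro, 15.0% in unstressed and 8.65% in starved cells. All 4 DMS libraries lay above the background at the nonamers. The 51 A and C nucleotides beside the nonamers, which are mostly stem, had 7.62% and 8.06% without DMS, 3.93% and 5.02% in refolded RNA (K+, then Li+), 4.13% in unstressed and 4.81% in starved cells. All 4 DMS libraries lay below the background there.

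The starved over unstressed ratio of the hairpin share was 0.705 (interval 0.642 to 0.775, from 1052 and 763 stops). It was 0.578 at the nonamers (interval 0.517 to 0.647) and 1.17 at the nucleotides beside them (interval 0.968 to 1.41). The lower share lay at the nonamers. When the share of each nucleotide in a library without DMS was subtracted, the ratio was 0.550 (labelled K+) or 0.531 (labelled Na+). The mean deposited ratio, in which 1 is the mean of the same base in the transcript, was 3.82 at the A and C of the nonamers in unstressed cells and 2.37 in starved cells. It was 2.19 and 2.68 in RNA refolded in K+ and Li+, and 1.51 and 1.44 without DMS (labelled Na+ and K+). On this scale starved cells lay between refolded RNA in K+ and in Li+, whereas by the share of 3′ UTR stops they lay below both (8.65% beside 11.0% and 13.0%).

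The hairpins differed among themselves. Hairpin 1 took 3.0% and 3.30% of the A and C stops of the 3′ UTR without DMS, 3.02% and 3.24% in vitro, 2.35% in unstressed and 1.34% in starved cells, so over the whole window both libraries from cells lay under its background level. At its nonamer the mean deposited ratio was 3.27 in unstressed and 1.29 in starved cells, beside 1.98 and 1.93 without DMS, so there only starved cells lay lower. Hairpin 2 took 2.25% and 2.07% without DMS, 2.41% and 2.85% in vitro, and 2.83% and 1.83% in unstressed and starved cells. Hairpin 3 took 1.36% and 1.31% without DMS, 2.13% and 2.41% in vitro, and 3.30% and 1.83% in unstressed and starved cells. For hairpin 6, the last before the poly(A) tail, the values were 1.17% and 1.42%, 2.05% and 2.35%, 4.23% and 2.16%. Hairpins 3 and 6 were lowest without DMS, and unstressed cells were highest. Hairpin 4 had the largest share in every library, with 4.93% and 5.42% without DMS, 3.73% and 5.63% in vitro and 4.43% in both unstressed and starved cells. The intervals in cells (3.83 to 5.11% unstressed, 3.99 to 4.91% starved) overlap that of the library labelled Na+ (4.35 to 5.58%). At its nonamer the mean deposited ratio was 4.71 in unstressed and 4.41 in starved cells, above the 2.79 and 2.87 without DMS. Hairpin 5, the one with the different nonamer, took 2.04% and 1.68% without DMS, 1.62% and 1.52% in vitro, and 1.95% and 1.87% in cells. Neither hairpin 4 nor hairpin 5 differed in share between unstressed and starved cells beyond its counting interval.

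**Figure D3:**
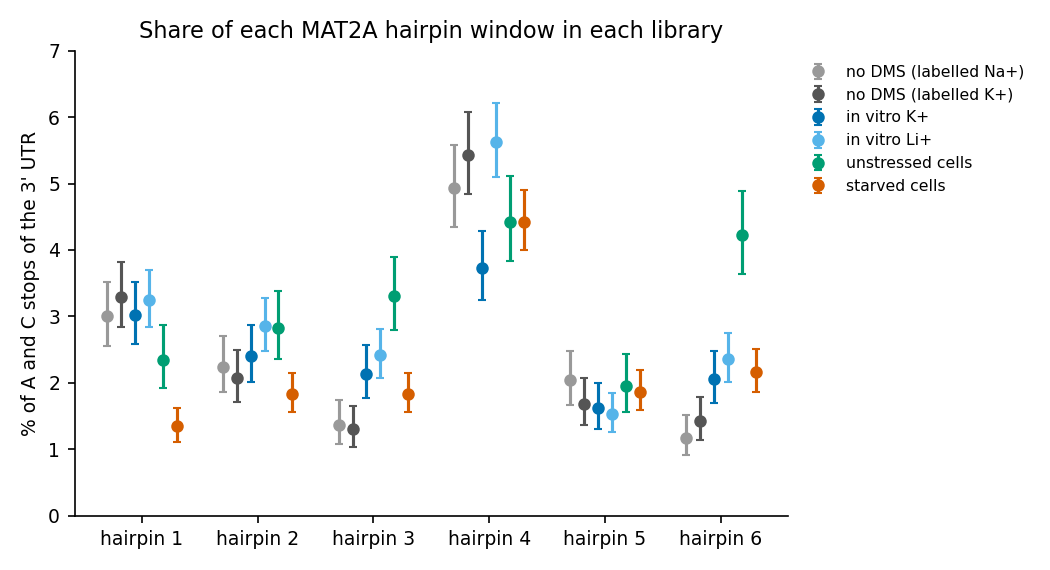
Percent of the A and C stops of the MAT2A 3′ UTR in each 29-nt hairpin window in the 6 libraries, with 95% Wilson intervals for counting error. Hairpins 3 and 6 are highest in unstressed cells (3.30% and 4.23%), and hairpin 4 has the largest share in every library.

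From hairpin 1 to 6, the starved over unstressed ratio was 0.572, 0.647, 0.554, 1.00, 0.958 and 0.512. Relative to the whole transcript, as for the background, 4 of 6 windows were at least 1.5-fold lower and 0 were at least 1.5-fold higher. Of 115466 windows of 29 nt tiled over all transcripts, 25.1% were at least 1.5-fold lower and 26.8% higher. Of 34589 windows with at least 150 A and C stops, a depth that every hairpin reached, 18.7% were lower and 18.2% higher. Among 52299 windows with high A and C stops in refolded RNA, 22.2% were lower and 26.7% higher. The sequence around a window moved with it at some hairpins. In the neighbouring 50 nt of hairpin 1, of which only 29 nt on its 5′ side lie in the 3′ UTR and were used, the ratio was 0.522 (interval 0.413 to 0.661), close to that of the hairpin itself. Beside hairpin 6 it was 0.721 (0.634 to 0.822), above the 0.512 of the hairpin. Beside hairpins 2 and 3, it was 1.03 (0.875 to 1.22) and 1.18 (1.01 to 1.37), and the sequence beside them was thus not lower. Beside hairpin 4 it was 1.17 (0.987 to 1.38), with 1.00 in the hairpin. Beside hairpin 5 it was 0.765 (0.670 to 0.874), below the 0.958 of the hairpin. Relative to this neighbouring sequence, the ratio over all hairpins was 0.801 (interval 0.729 to 0.880).

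**Figure D4:**
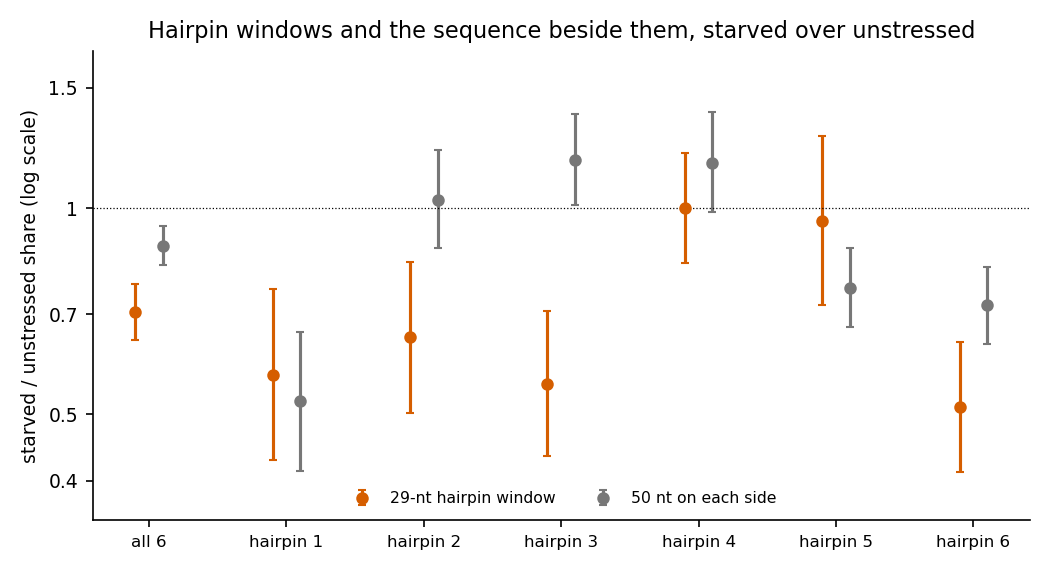
Starved over unstressed ratio of the share of 3′ UTR A and C stops (log axis) in the hairpin windows and in the 50 nt on each side (29 nt on the 5′ side of hairpin 1), with 95% exact conditional intervals for counting error. Hairpins 2 and 3 lie under 1 (0.647 and 0.554) while the sequence beside them does not, whereas at hairpin 1 both are low (0.572 and 0.522).

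Compared with refolded RNA in K+, the hairpin share in unstressed cells was 1.28-fold higher (interval 1.15 to 1.41), with a ratio of 2.06 for hairpin 6 (1.60 to 2.66), 1.55 for hairpin 3 (1.19 to 2.02) and 0.779 for hairpin 1 (0.596 to 1.01). In starved cells it was 0.900 of that in refolded RNA (interval 0.819 to 0.990). There hairpin 1 was at 0.445 (0.344 to 0.574) and hairpin 2 at 0.760 (0.593 to 0.976). Hairpins 3 to 6 were at 0.859, 1.19, 1.15 and 1.05, with intervals that include 1. Without hairpin 1 the ratio of the others was 1.02, an average of hairpins on both sides of 1. The sequence within 50 nt of the hairpins was also higher in unstressed cells, with 1422 of 3999 A and C stops beside 1362 of 5070 in refolded RNA. Beside hairpins 6, 3 and 1 the counts were 400, 245 and 146 in unstressed cells and 227, 261 and 182 in refolded RNA. The higher share was thus not particular to the hairpins. As a share of the whole transcript, the hairpin ratios were 1.79 in unstressed and 1.26 in starved cells, because the libraries from cells carried fewer stops in the coding sequence.

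Within the nonamer, the positions differed in a like order in the DMS libraries. The values below are mean deposited ratios over the 6 hairpins, each relative to the mean of its own base, so that C and A are on separate scales. The C at position 3 had 1.86 and 1.31 without DMS, 4.06 and 5.70 in refolded RNA (K+, then Li+), 7.16 in unstressed and 4.45 in starved cells. The A at position 2 had 0.478 and 0.428 without DMS, 1.87 and 2.11 in vitro, 2.21 in unstressed and 1.97 in starved cells. The A at position 9 had 1.44 and 1.40 without DMS, 2.79 and 2.86 in vitro, 4.92 in unstressed and 2.38 in starved cells. These 3 positions lay above the background in every DMS library. Position 4, the methylated adenosine, went the other way, with 2.14 and 2.60 without DMS, 1.19 and 1.36 in vitro, 1.63 in unstressed and 1.10 in starved cells. This A was the highest A or C of the nonamer without DMS and the lowest in all 4 DMS libraries. Summed over the hairpins, position 4 had 85 and 115 stops without DMS, 61 and 90 in vitro, 51 in unstressed and 64 in starved cells. These are raw counts from libraries of unequal depth and cannot be compared between libraries. The ratio is relative to the mean of A in the transcript, so a lower value does not by itself mean fewer stops at this A. At each of the 6 A and C positions shared by all hairpins, starved cells were below unstressed cells in the mean deposited ratio. Positions 6 and 8 had 3.04 and 4.32 in unstressed cells and 2.00 and 2.45 in starved cells. These ratios divide by the mean over the whole transcript, and in cells the coding sequence held fewer of the stops. Relative to the mean of the base in the 3′ UTR, position 3 was at 3.23 in RNA refolded in K+, 5.18 in unstressed and 2.69 in starved cells. Position 2 was at 1.66, 1.46 and 1.23. The order of cells and refolded RNA thus depends on the scale.

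**Figure D5:**
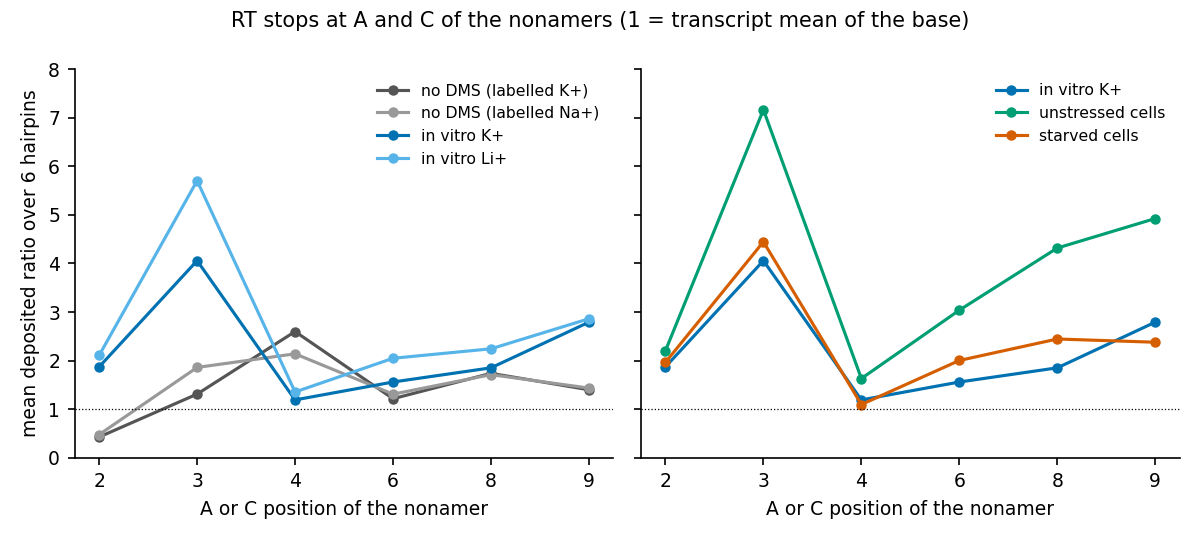
Mean deposited ratio (1 is the mean of the same base in the transcript) at the A and C positions of the MAT2A nonamers, averaged over 6 hairpins, without DMS and in vitro (left) and in cells beside RNA refolded in K+ (right). The C at position 3 is highest in unstressed cells (7.16), and the A at position 4 is higher without DMS (2.14 and 2.60) than in any DMS library.

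Single nucleotides ranged widely between hairpins. At position 4, unstressed cells had 7, 5, 4, 10, 6 and 19 stops from hairpin 1 to 6, and starved cells 4, 6, 10, 26, 7 and 11. The highest was hairpin 6 in unstressed cells and hairpin 4 in starved cells. At positions 8 and 9 of hairpin 6, both predicted paired in that hairpin, unstressed cells had 42 and 40 stops and starved cells 33 and 25. At positions 8 and 9 of hairpin 4, predicted unpaired, unstressed cells had 20 and 32 stops and starved cells 46 and 54. These counts stand beside 3999 A and C stops of the 3′ UTR in unstressed and 7816 in starved cells.

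The predicted fold separated the A and C nucleotides of the windows into 44 unpaired and 44 paired ones. Unpaired nucleotides had a mean of 13.0 stops and paired ones 4.27 in vitro in K+, a ratio of 3.03, and the ratio was 3.08 in Li+. It was 2.30 in unstressed cells (12.1 and 5.25 stops), 1.97 in starved cells (15.9 and 8.05 stops), and 1.14 and 1.23 without DMS. Unpaired nucleotides were thus higher in every DMS library. Of the paired nucleotides, 24 in unstressed and 12 in starved cells were not listed, so their mean is a minimum. With nucleotides that are not listed counted as 2, the ratio was 1.93 in unstressed cells (interval 1.67 to 2.24) and 1.86 in starved cells (interval 1.64 to 2.11), and these intervals overlap.

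Nucleotides of the nonamers were among the strongest A and C stops of the MAT2A 3′ UTR. Of the 5 strongest nucleotides, 4 lay in a nonamer in vitro in Li+, 3 in unstressed cells, and 1 each in vitro in K+ and in starved cells. The last A of the nonamer of hairpin 4 (chr2, 85772030) was among the 5 strongest in every DMS library, with 27 stops after refolding in K+, 56 after refolding in Li+, 32 in unstressed cells, 54 in starved cells, and 22 and 28 without DMS. In unstressed cells the strongest was an A at 85772315, 89 nt before the end of the transcript, with 44 stops (49 in starved cells, 17 in vitro in K+ and 19 in Li+). In starved cells, A nucleotides at 85772380 and 85772384, 24 and 20 nt before the end, had 54 and 50 stops and 10 and 19 in unstressed cells. The 3 strongest nucleotides in vitro in K+ were A at 85771832, 85771830 and 85771833, outside the hairpins, with 36, 35 and 35 stops.

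Windows of 29 nt were also tiled over the whole members, hairpins included. Of 51 MAT2A 3′ UTR windows with enough stops, 9 were at least 1.5-fold higher and 7 lower in starved cells (median ratio 1.02), and in the coding sequence 6 and 4 of 19 (median 0.932). AHCY had 6 higher and 7 lower of 25 in its 3′ UTR and 2 higher and 4 lower of 30 in its coding sequence. MAT2B had 4 higher and 5 lower of 23 in its 3′ UTR. The background was 26.8% higher and 25.1% lower. Of the MAT2A 3′ UTR windows, 11 overlapped a hairpin window, with 1 higher, 4 lower and a median of 0.729. The other 40 had 8 higher and 3 lower, with a median of 1.10. METTL16 had no window with enough stops.

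Other genes of the pathway were counted on the same scale, from lists whose members with at least 200 listed stops over both libraries are given. Of 22 other methionine cycle and salvage genes, 14 reached this minimum, and 2 were at least 1.5-fold higher and 5 at least 1.5-fold lower in starved cells, with a median ratio of 0.791 beside 0.882 for all transcripts. From stops at U and G alone, 6 were higher and 3 lower of the 13 that gave a ratio, with a median of 1.40. Several of these ratios rest on few listed stops, with 6 in unstressed cells for each of APIP, MTRR, MTAP and MRI1. At U and G 37.9% of 6442 transcripts were higher and 40.9% lower, with a median of 0.963. The extremes were APIP, an enzyme of the methionine salvage pathway, at 3.37 (365 and 2269 stops in unstressed and starved cells), MTR, the methionine synthase, at 1.83 (53 and 179 stops), PEMT, which methylates phosphatidylethanolamine, at 0.258 (430 and 205 stops) and SRM, the spermidine synthase, at 0.166 (5391 and 1653 stops). Of 18 m6A writers, readers and erasers, 16 reached the minimum, with 5 higher, 6 lower and a median of 0.906. At U and G, 9 were higher and 5 lower of 15, with a median of 1.74. Here too unstressed counts were small, with 3 for each of METTL3, METTL14, CBLL1 and YTHDC2. Counts this near the listing limit of 3 cannot settle a direction for either list. METTL14, a subunit of the m6A writer, had a ratio of 7.02 (32 and 415 stops), and METTL5, an rRNA methyltransferase, one of 2.66. The demethylase FTO was at 0.0930 (192 and 33 stops) and RBM15B, an adaptor of the m6A writer complex, at 0.172. From stops at U and G alone, the ratios of these genes other than MTR stayed on the same side of 1, and 5 of the 7 moved by over 1.5 times. APIP was at 12.1 (6 and 251 stops), METTL14 at 2.12 (3 and 22 stops), METTL5 at 8.61 (29 and 863 stops), FTO at 0.241 (6 and 5 stops) and RBM15B at 0.271 (32 and 30 stops). MTR had 0 and 3 such stops, which gives no ratio, and PEMT and SRM were at 0.240 and 0.146.

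Of 7 factors linked to MAT2A mRNA processing, 0 were higher and 5 lower, with a median of 0.591. At U and G 2 were higher and 3 lower, with a median of 0.763. NUDT21, a subunit of cleavage factor Im, had the largest ratio (1.41), followed by YTHDC1, the nuclear m6A reader (1.17), whereas the splicing factors RNPS1 and U2AF2 were at 0.151 and 0.130. Of 6 methionine transport genes 5 reached the minimum, 2 higher and 2 lower, with a median of 0.673. At U and G 1 was higher and 2 lower of 4. The amino acid transporters SLC38A1 and SLC38A2 were at 4.91 (89 and 807 stops) and 1.51, and SLC1A5 and SLC7A5, the latter a carrier of large neutral amino acids including methionine, at 0.362 and 0.134. From stops at U and G alone, NUDT21 was at 2.67, YTHDC1 at 1.74 and SLC38A2 at 2.23, and SLC38A1 gave no ratio (0 unstressed and 74 starved stops). The counts from all bases are read beside 32.9% and 42.5% of all transcripts.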

How the data were processed

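The files hold RT stops of 6 U2OS libraries, 1 per condition. The authors removed duplicate reads, mapped the reads uniquely and without mismatches to an hg19 transcriptome with Bowtie, and deposited the count of RT stops at each nucleotide with at least 3 stops. They also deposited the ratio of this count to a mean of the transcript, which by the file values averages all nucleotides with that base, counts under 3 included. Nucleotides not listed were taken as 0. Of 15739 RefSeq transcripts, 15375 (97.7%) were matched to a gene symbol. Groups follow the sample labels, which for the pair without DMS contradict the file names.

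Sequence, exons and UTRs came from GENCODE release 44 on GRCh37, and hairpin pairing from RNAfold 2.7.2. Transcript shares were compared with at least 200 listed stops over both libraries, and 29-nt windows with at least 40 A and C stops. Windows with high A and C stops in refolded RNA had at least 1.5-fold the mean window of the transcript and at least 20 stops in vitro in K+. Ratios carry exact conditional binomial (Clopper-Pearson) and shares Wilson 95% intervals, which cover counting error only, and no test was run without replicates. The ratio calculation was tested on simulated data. The 4 members are named throughout, as are the 2 largest and 2 smallest ratios of each list, the A and C of the nonamers and the 5 strongest A or C nucleotides of the MAT2A 3′ UTR in each DMS library. Windows in other members and nucleotides outside this rule were described after their values were seen. The members and lists were chosen with earlier results of these data known. In total 50 alternatives were planned, which gave 53 values because the cation assignment was applied to each of the 4 members, and 10 were added after seeing the data, which gave 33 values. The scripts ran in Python 3.11.15 with scipy 1.17.1, numpy 2.4.6, matplotlib 3.10.9 and pandas 2.3.3.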

Additional observations from a re-analysis of the deposited data

How the results depend on the processing

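For MAT2A, the starved over unstressed transcript share of 1.25 was 1.09 with totals estimated from the deposited means, 1.91 at U and G, 1.20 at A and C and 1.42 when scaled to the median ratio over transcripts. It moved by over 1.5 times at U and G only, where the listing limit also weighs on unstressed cells. For AHCY the 4 alternatives gave 0.409 to 0.487, for METTL16 0.323 to 0.501 and for MAT2B 1.15 to 1.87, all in the direction given in the report. The hairpin share, starved over unstressed, was 0.705 and ran from 0.531 to 0.810 over 13 alternatives. It was 0.578 at the nonamers only, 0.550 and 0.531 after subtraction of the library without DMS labelled K+ or Na+, 0.810 from the mean deposited ratio and 0.801 relative to the 50 nt on each side. For unstressed cells over refolded RNA in K+ (1.28), it was 1.79 as a share of the whole transcript, 1.61 from the mean deposited ratio and 1.42 after subtraction of the library labelled Na+. For starved cells over refolded RNA (0.900), it was 0.784 at the nonamers only and 0.772 or 0.755 after subtraction of the library labelled K+ or Na+. That result turned to above 1 as a share of the whole transcript (1.26), without the first hairpin (1.02) and from the mean deposited ratio (1.30), and its direction is therefore not settled. The difference in A and C share of -14.3 percentage points was -12.2 in the coding sequence and -9.65 from the deposited means of the whole transcript. It was 0.110 when nucleotides that are not listed counted as 2, which is above the deposited means at U and G in unstressed cells. With the opposite cation assignment, the ratios of the 2 libraries without DMS invert, to 1.04 for MAT2A and 1.02 for AHCY. The unpaired over paired ratio of the hairpins, with nucleotides that are not listed counted as 2, was 2.52 and 2.80 in refolded RNA (K+, then Li+). At U and G, the count of higher genes became 6 in place of 2 for the methionine cycle, 9 in place of 5 for m6A factors, 2 in place of 0 for MAT2A processing and 1 in place of 2 for transport, and that of lower genes 3 in place of 5 for both the methionine cycle and MAT2A processing. Several unstressed counts behind these U and G values are near the listing limit. No paired analysis was possible because each condition had 1 library. Depth limits METTL16 most, with 121 to 562 listed stops per library.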
